A study of Mus musculus with 12 samples.

Results

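Tumours of 1 knockout line of mouse cancer cells, line 19, were compared with tumours of 1 control line, line 15, whose cells were captured together in a single pooled library. Both lines derive from SCC35 cells in a series on melanoma rejection. The labels call line 19 a knockout (KO) of Mif and line 15 a control of that knockout. The hashtag sheet gives each line 1 hashtag at day 6, 1 at day 10 and 1 at day 16 in this library, so that the lines form 3 pairs by day. It does not say whether a hashtag marks 1 tumour of 1 animal or several pooled ones, and a hashtag is called a tumour here, so each SD and n counts hashtags. Cells were kept with at least 300 genes, at most 15% mitochondrial counts, a top hashtag of at least 20 counts and a top hashtag at least 3 times the second. Of the 116375 cells assigned to a hashtag in the whole series, 17505 carried 6 of the 47 hashtags in the deposited sheet, 5751 of them from line 15 and 11754 from line 19. The remaining tumour of the pooled library was of control line 18 at day 16. Other tumours of both lines in 2 libraries of their own, and tumours of KO line 24 and control line 18 in a second pooled library, are set beside the results. No source used here gives the mouse strain, the hosts' sex and age, how Mif was disrupted or whether a line is 1 clone. Each group is 1 line, so a difference between the lines and a difference due to Mif cannot be told apart.

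Mif encodes macrophage migration inhibitory factor, a cytokine that most cells make and store, and release under stress. It binds CD74, together with CD44 or the chemokine receptors CXCR2, CXCR4 and ACKR3. It is known for holding macrophages at sites of inflammation, and many tumours make large amounts of it. The labels give the knockout to the line and not to the host cells in its tumours, so immune cells were separated from the rest before any comparison. Cells with at least 2 unique molecular identifiers (UMIs, 1 per captured RNA molecule) of Ptprc and Tyrobp together, a pan-leukocyte surface protein and a myeloid signalling adaptor, were called immune. All remaining cells were called other cells, and these still hold stromal cells of the host beside cells of the line.

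The hashtag oligonucleotides define which cell belongs to which tumour, so they carry every comparison here. Each is the DNA tag of an antibody that was bound to all cells of 1 tumour before pooling, and each is written 5′ to 3′ as listed with the deposited counts.
HASH-M1, line 15 at day 6: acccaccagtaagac
HASH-M2, line 15 at day 10: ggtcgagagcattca
HASH-M3, line 15 at day 16: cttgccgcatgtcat
HASH-M4, line 19 at day 6: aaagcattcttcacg
HASH-M5, line 19 at day 10: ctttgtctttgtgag
HASH-M6, line 19 at day 16: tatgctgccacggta
The median count of the top hashtag per cell was 929 for HASH-M1, 331 for HASH-M2 and 279 for HASH-M3 in line 15. It was 892 for HASH-M4, 801 for HASH-M5 and 177 for HASH-M6 in line 19. The second hashtag had a median of 14 to 17 counts in all 6 tumours.

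Of 30359 barcodes in the pooled library, 29136 met the limits on genes and mitochondrial counts, and 75.7% of those received 1 hashtag. A further 18.1% had a top hashtag under 3 times the second, and 6.23% had a top hashtag under 20 counts. Of the latter cells 0.386% were immune, against 24.9% of the assigned cells, so the hashtag rule bears on shares of cells. The 6 tumours gave 1485 to 4119 cells each. Other cells had a median of 5934 to 8542 UMIs and immune cells a median of 1875 to 4410 UMIs per cell, by tumour. In each of the other 5 libraries, 376 to 846 passing cells had a barcode that also occurs among the 17505 cells. Of 7 melanocyte markers, Mlana, Tyr, Tyrp1 and Dct were at 0 in the other cells of all 6 tumours. Pmel, Mitf and Sox10 together held 69 to 427 UMIs per tumour. Sox10 was at 0 in line 15 at day 6 and in line 19 at day 16. The other cells are named here by their line. In sums of other cells, every pair of the 6 tumours differed by more than sampling noise. The chi-square was 6.73 to 10.03 times its degrees of freedom within line 15 and 20.2 to 51.6 times within line 19. Between the lines it was 17.6 to 35.8 times, so pairs within line 19 reached values as high as those between the lines. The value grows with the depth of the sums, which was greater in line 19.

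Mif itself was lower in line 19 in other cells, and in immune cells its difference did not pass the test. In other cells of line 15, Mif was at 2002 CPM (counts per tumour scaled to a common library size, with edgeR's TMM factors) at day 6, 1847 at day 10 and 1653 at day 16. In other cells of line 19 it was at 429.8, 422 and 339 CPM on the same days. All 3 tumours of line 19 were far below all 3 of line 15. Mif fell by 2.21 on the log2 scale (SE 0.067, edgeR adjusted p = 0.00018), from 1834 ± 174 to 397 ± 50.6 CPM (SD, n = 3). In immune cells, Mif was at 1178, 1131 and 1085 CPM in line 15 and at 1008, 931 and 1069 in line 19. The lines did not overlap there either, but the difference was -0.18 on the log2 scale (SE 0.09, edgeR adjusted p = 0.385). Mif lies on chr10:75859353-75860240 of GRCm38, on the minus strand. In sums over the cells of a tumour, fewer cells of a type and less RNA per cell cannot be told apart.

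The Mif remaining in other cells of line 19 was higher in the pooled library than in the library that held line 19 alone. In that library, other cells of the 6 line 19 tumours had 82.0 to 103 CPM of Mif, and the 6 line 15 tumours in the line 15 library had 2081 to 2744. The cultured cells of day 0 had 39.2 and 47.1 CPM of Mif in line 19 and 2975 and 2979 in line 15. Immune cells of line 19 had 438 to 707 CPM of Mif in that library, and those of line 15 had 1651 to 1888. Each set of libraries was scaled in its own fit. After every cell was thinned to 1000 UMIs, 16.8% to 23.9% of other cells of line 19 in the pooled library had a Mif UMI. In the line 19 library the share was 6.2% to 10.2%, against 70.8% to 73.4% for line 15 in the pooled library. The thinning left out 91, 68 and 64 other cells of line 15 and 150, 152 and 139 of line 19 at days 6, 10 and 16 of the pooled library. Without thinning, 46.0% to 60.5% of other cells of line 19 in the pooled library had a Mif UMI. The part of free RNA from the other tumours of the pool in this level was not tested.

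**Figure D1:**
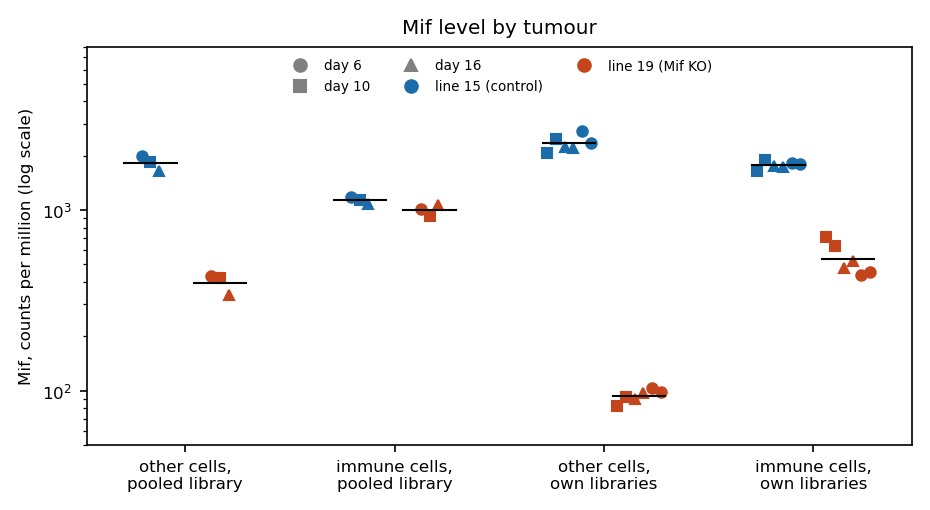
Mif in CPM (log axis) by tumour in other cells and immune cells, with 3 tumours per line in the pooled library and 6 per line in the libraries of 1 line. Bars are means. Line 19 is lower in other cells of both designs, and in immune cells its tumours lie near those of line 15 in the pooled library alone.

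Beside Mif itself, 5 genes of its homologue and receptors were tested in other cells, and none of them was called by edgeR. Ddt, the homologue of Mif, had 55.1 ± 1.67 CPM in line 19 and 62.9 ± 9.87 in line 15 (SD, n = 3; edgeR adjusted p = 0.355). Cd44 had 334 ± 34.6 and 337 ± 44.6 (edgeR adjusted p = 0.984). In immune cells Cd74 had 3890.5 ± 612 CPM in line 19 and 3257 ± 551 in line 15 (SD, n = 3; edgeR adjusted p = 0.451).

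In other cells, 973 of 13352 genes passed the test (7.29%), 498 of them higher in line 19 (3.73%) and 475 lower (3.56%). The 20 genes described next, Mif among them, have the largest called changes in each direction among genes whose mean logCPM was 4 or more and that moved in 1 direction on all 3 days. Larger changes were called at lower levels, and some of those are named with their lists. For 3674 genes (27.5%) the 3 tumours of line 19 lay all above or all below the 3 of line 15. The 20 genes all did so, which the choice by 1 direction on each day in part fixes. Cck, the hormone cholecystokinin, had the largest fall of the 20. It had 194, 108 and 38.5 CPM in line 15 at days 6, 10 and 16 and 8.94, 7.79 and 7.40 in line 19. The log2 difference of Cck was -3.59 (SE 0.37, edgeR adjusted p = 0.00583). A Cck UMI was found in 5.56%, 4.07% and 2.16% of the line 15 other cells and in 1.86%, 0.899% and 0.714% of those of line 19, so few cells carried it in either line.

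The insulin-like growth factor binding proteins Igfbp5 and Igfbp3 were also lower. Igfbp5 had 53.4, 35.1 and 25.0 CPM in line 15 and 7.26, 4.34 and 5.03 in line 19. Its log2 difference was -2.74 and that of Igfbp3 was -2.02. Tnn, the matrix glycoprotein tenascin-N, had a log2 difference of -2.58. Without cells that carry stromal markers Igfbp3 was at -1.02 (edgeR adjusted p = 0.175) and Tnn at -1.86 (adjusted p = 0.147), so neither was called. Without the day 6 pair the adjusted p of Tnn was 0.054. Ereg, an EGF receptor ligand, had 69.1, 45.1 and 14.5 CPM in line 15 and 13.5, 6.08 and 4.47 in line 19. Ereg thus declined from day 6 to day 16 in the tumours of both lines, and its log2 difference was -2.35. Without the day block Ereg was not called (edgeR adjusted p = 0.0547). Ccl2, the chemokine that draws monocytes through CCR2, had 356, 257 and 361 CPM in line 15 and 128, 45.8 and 47.1 in line 19. It fell by 2.30 on the log2 scale (SE 0.26, edgeR adjusted p = 0.00725). Tslrn1, a long non-coding RNA gene, had 29.8, 35.2 and 26.4 CPM in line 15 and 5.47, 5.41 and 4.61 in line 19. Tspan6, a tetraspanin, and Crabp1, a retinoic acid binding protein, had log2 differences of -2.16 and -2.15.

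Wfdc2, a secreted protease inhibitor of epithelia, had the largest rise among the 20 genes. It had 7.05, 15.6 and 6.44 CPM in line 15 and 67.8, 217 and 166 in line 19, with a log2 difference of 4.01 (SE 0.24, edgeR adjusted p = 0.00142). A Wfdc2 UMI was found in 13.2%, 32.2% and 22.6% of other cells of line 19 at days 6, 10 and 16 and in 2.94%, 3.84% and 2.62% of those of line 15. After thinning to 1000 UMIs the shares were 4.46%, 12.3% and 9.02% against 0.54%, 1.03% and 0.546%. Day 6 was thus the lowest of the 3 days for Wfdc2 in line 19. Cldn9, a tight junction claudin, followed with 12.5, 62.7 and 29.9 CPM in line 19 and 4.73 to 5.29 in line 15. Prdx4, a peroxiredoxin of the endoplasmic reticulum, had 119, 109.9 and 101 CPM in line 19 and 26.4, 21.2 and 12.7 in line 15. S100a16, a calcium-binding protein, had 68.5, 86.3 and 89.1 in line 19 and 18.9, 16.6 and 22.5 in line 15. The log2 differences were 2.73 for Cldn9 (2.06 without the day 10 pair), 2.52 for Prdx4 and 2.08 for S100a16.

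The other 6 of these rises were smaller. Mfap5, a microfibril protein of fibroblasts, had a log2 difference of 1.69. Without cells that carry stromal markers the difference of Mfap5 was -0.06 (edgeR adjusted p = 0.952). Mfap5 is itself 1 of those markers, so the loss of its rise there was in part fixed by the choice of cells. Without the day block Mfap5 was not called (adjusted p = 0.0921). Aspn, a small leucine-rich protein of connective tissue, had 1.68, and without the day block it was not called (edgeR adjusted p = 0.111). Egln3, a prolyl hydroxylase induced by hypoxia, had 55.2, 72.4 and 114 CPM in line 19 and 27.5, 23.2 and 26.0 in line 15, a log2 difference of 1.63. Lgals7, a galectin of stratified epithelia, had 111, 383 and 394 against 83.0, 81.2 and 98.3 CPM, a log2 difference of 1.59 (edgeR adjusted p = 0.0394). Without the day 10 pair the adjusted p of Lgals7 was 0.0732, and without the day 16 pair 0.108. Ttll5, a tubulin polyglutamylase, and Ccdc88c, a Wnt signalling scaffold, had log2 differences of 1.66 and 1.56.

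**Figure D2:**
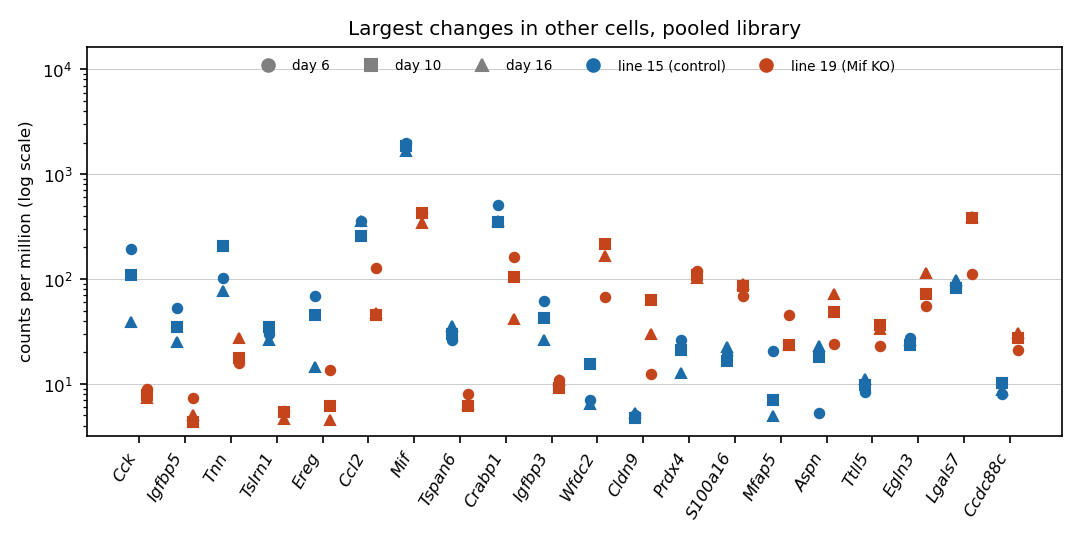
CPM (log axis) in other cells of each tumour of the pooled library for Mif and the largest changes in each direction. Blue is line 15, orange is line 19 and the symbol gives the day. For every gene shown the tumours of the lines do not overlap.

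Among secreted signals, 8 of 23 tested chemokines and cytokines fell in other cells and 1 rose, where 3.56% of all tested genes were called lower and 3.73% higher. The median log2 difference of the list was -0.72, against -0.01 over all genes. The lists here and below were chosen with earlier results of these data known. Their counts beside the share over all genes are thus a description and no test of enrichment. Besides Ccl2, the falls were Ccl7 (log2 difference -1.57), Il11 (-1.66), Tslp (-1.46), Il33 (-1.18), Il6 (-1.18), Ccl5 (-1.09) and Cxcl1 (-0.79). Cxcl1, a neutrophil chemokine, was the most abundant, at 1167, 973 and 1082 CPM in line 15 and 762, 491 and 640.4 in line 19. The rise was that of Cx3cl1 (0.74), a membrane-bound chemokine of monocytes and lymphocytes. Csf1, the macrophage growth factor, had 280.1 ± 37.8 and 273 ± 21.2 CPM in lines 15 and 19 (SD, n = 3; edgeR adjusted p = 0.869). Among prostaglandin genes, Ptgs2 fell (log2 difference -1.28), as did Akr1c18 (-1.51), a hydroxysteroid dehydrogenase, while Ptgds (0.75), a prostaglandin D synthase, rose.

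Markers of immune cells were not spread evenly over the other cells of both lines. The summed level of 9 macrophage markers was 66.3 to 174 CPM in other cells of line 15 and 54.2 to 58.6 in line 19. That of 5 neutrophil markers was 3.001 to 62.3 against 1.49 to 1.93, and that of 8 T-cell markers 20.1 to 44.7 against 12.4 to 70.4. The macrophage and neutrophil sums were highest in line 15 at day 6, and their part in the falls of Ccl2, Ccl5 and Il6 was not tested. The 4 osteoclast markers summed to 32.0, 62.9 and 39.2 CPM in other cells of line 15 at days 6, 10 and 16 and to 16.3 to 19.2 in line 19, and their part in the fall of Ctsk was not tested. With other cells restricted to those with 0 UMIs of Ptprc and Tyrobp, edgeR called 1084 genes.

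Matrix genes changed in both directions, beside the same 3.56% lower and 3.73% higher over all genes. In these cells 6 fibroblast markers summed to 54.8, 43.6 and 40.3 CPM in line 15 at days 6, 10 and 16. They summed to 70.5, 50.4 and 49.1 CPM in line 19, with 1 of the 6 called higher and 1 lower. Their part in the changes of matrix genes was not tested. Of 18 matrix proteases and inhibitors, 5 fell and 1 rose. Mmp10 (log2 difference -3.29), Mmp3 (-1.85), Mmp19 (-1.53), Ctsk (-1.01) and Mmp2 (-0.54) fell, and the inhibitor Timp1 (0.54) rose. The osteoclast gene Ctsk is an immune difference as well, and in other cells Acp5 (-1.56) also fell, so that 2 of 3 tested osteoclast markers were called lower there. Of 17 collagens, Col12a1 (-1.86), Col5a3 (-1.34) and Col16a1 (-0.80) fell, and Col11a1 (1.81) and Col1a1 (0.62) rose. Of 12 small leucine-rich proteoglycans and mineral matrix genes, 5 rose and 3 fell. Dmp1 (2.27), a mineralisation protein, Aspn, Omd (1.56), Mgp (1.01) and Sparc (0.33) rose, while Dcn (-1.70), Prelp (-1.35) and Lum (-1.29) fell. Decorin, encoded by Dcn, had 550.5, 342 and 169 CPM in line 15 and 157, 89.5 and 66.0 in line 19 at days 6, 10 and 16. It thus fell over time in both lines, and every line 19 tumour was below every line 15 tumour.

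The list of epithelial genes had 5 tested members of 11, of which Wfdc2, Krt8 and Krt18 rose, where 3.73% of all tested genes were called higher. The remaining members, Lcn2 (log2 difference -1.68, edgeR adjusted p = 0.0708) and Sprr1a (-1.43, adjusted p = 0.0858), were not called. Krt8 and Krt18 encode the paired keratins of simple epithelia. Krt8 had 0.682, 1.89 and 1.06 CPM in line 15 and 7.12, 42.9 and 22.8 in line 19, a log2 difference of 4.36 (SE 0.2, edgeR adjusted p = 0.000896). Krt18 had 250.1, 160.2 and 105 against 449, 469.99 and 405, a log2 difference of 1.45. In line 15, Krt8 rested on 3 to 18 UMIs per tumour, while its partner Krt18 was plentiful. A Krt8 UMI was found in 2.27%, 6.86% and 3.73% of other cells of line 19. The keratinocyte markers Krt5, Krt14, Krt15, Trp63, Dsg3 and Krtdap summed to 1.90 to 2.97 CPM in line 19 and to 0.105 to 63.7 in line 15, where only day 6 was above 0.546.

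The signalling lists held calls in both directions, beside 7.29% of all tested genes called. Of 16 TGF-beta genes, Tgfbi (log2 difference -1.70), Tgfbr3 (-1.04) and Ltbp1 (-0.34) fell and Tgfb3 (1.35) rose. Of 9 Wnt antagonists and bone genes, the antagonists Dkk3 (-1.95), Sfrp1 (-1.91) and Notum (-0.83) fell. Of 15 genes in the list of checkpoint ligands, Cd80 (-1.71) and Cd200 (-1.55) fell, as did Cd55 (-2.89), a complement regulator. Vtcn1 (3.24) of that list, the inhibitory ligand B7-H4, rose from at most 0.42 to at least 2.17 CPM. Of 17 immediate early genes, Ier3 (-0.69), Atf3 (-0.59) and Dusp1 (-0.56) fell and Fos (0.84) rose. S100a3 (0.83) and S100a6 (0.36) rose beside S100a16 among 8 S100 genes. Among 23 cell cycle genes only Rrm2 (1.02) was called, and among 22 glycolysis and hypoxia genes only Egln3. By edgeR 0 of 15 genes of MHC class I presentation, 0 of 7 of MHC class II, 0 of 25 interferon response genes, 0 of 16 MAPK feedback genes and 0 of 16 p53 targets were called. The pericyte markers Rgs5 (-3.63), Kcnj8 (-3.50) and Notch3 (-2.25) all fell. With Abcc9 they summed to 6.46 to 8.90 CPM in line 15 and 0.551 to 1.73 in line 19.

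Tumours of the same lines in their own libraries gave most of the same calls. There, 6 tumours per line were compared and 50.6% of 13276 genes were called. All tumours of a line were in 1 library there, so library and line cannot be told apart in these calls. Of the 973 genes called in the pooled library, 933 were called in the same direction, which is 95.9% of the 973 and 13.9% of the 6714 called there, and 0 in the opposite direction. For 692 of the 973 the difference was larger in the own libraries. Tslrn1 had a log2 difference of -5.78 there, Mif -4.65, Igfbp5 -4.36 and Wfdc2 5.60. Mfap5 was the exception among the 20 named genes, with -0.05 (SE 0.25, edgeR adjusted p = 0.891). In the cultured cells of day 0, Tslrn1 was at 42.4 and 45.9 CPM in line 15 and at 0 and 0.203 in line 19. Prdx4 was at 0.596 and 0.588 in line 15 and at 156 and 150.3 in line 19, and Tspan6 at 24.4 and 23.7 against 0 and 0.338. For these genes the lines stood apart in culture. Cck was at 0.0745 and 10.5 in line 15 and at 0 and 0.338 in line 19 at day 0, where both lines were low or variable.

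KO line 24 and control line 18, compared in the second pooled library at days 6 and 10, shared few calls with line 19 in other cells. There 1187 of 13007 genes were called (9.13%) from 2 tumours per line. Of the 973 genes, 81 were called in the same direction (8.33% of the 973 and 6.82% of the 1187) and 85 in the opposite direction (8.74% and 7.16%). Called or not, 430 of the 944 tested there had the same sign and 514 the opposite sign. The difference between the 2 pairs of lines was itself called for 1211 of 13653 genes (8.87%). Among the named genes, Ccl2 was higher in line 24 than in line 18 (log2 difference 2.36, edgeR adjusted p = 0.0333), against -2.30 for line 19, and the difference between the pairs was -4.60 (SE 0.67, edgeR adjusted p = 0.0102). Mif was lower in line 24 by a smaller amount, with a log2 difference of -0.74 (edgeR adjusted p = 0.0163). Wfdc2 (difference between the pairs 2.79), Cldn9 (3.62) and Prdx4 (2.38) also differed between the pairs. S100a16 was higher in both KO lines, with log2 differences of 2.08 and 2.95. Tspan6 (-2.16 and -1.78) was lower in both and Egln3 (1.63 and 1.96) was higher in both.

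**Figure D3:**
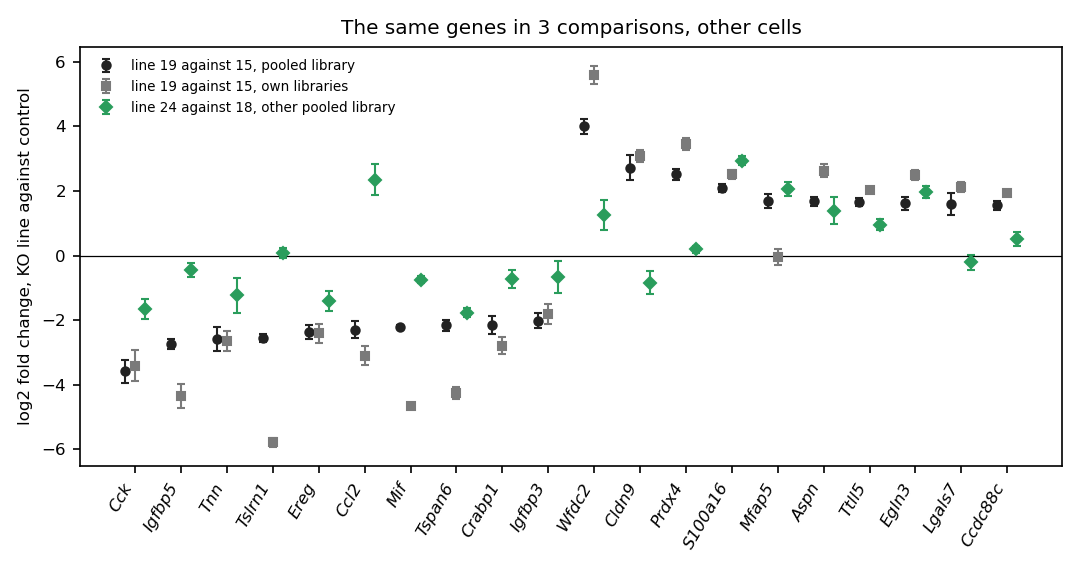
Log2 fold change with its standard error in other cells for the named genes, for line 19 against line 15 in the pooled library, the same lines in their own libraries, and line 24 against line 18 in the second pooled library. The first 2 comparisons share their direction for all but Mfap5, and Ccl2 points the other way in line 24.

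Immune cells made up a smaller share of line 19 tumours. They were 56.4% of cells at day 6, 31.1% at day 10 and 34.6% at day 16 in line 15, and 21.8%, 17.5% and 10.3% in line 19. The share was lower in line 19 on each of the 3 days, by 34.6, 13.6 and 24.3 percentage points, and the tumours of the lines did not overlap. The means were 40.7% ± 13.7 and 16.6% ± 5.81 (SD, n = 3), a difference that gives an exact two-sided sign-flip permutation p of 0.25, the smallest that 3 pairs allow. With the top hashtag at least 10 times the second, the means were 55.4% and 19.2%. That ratio kept 289 of 647, 619 of 1328 and 683 of 1528 other cells of line 15. Of its immune cells it kept 726 of 838, 486 of 600 and 701 of 810. In line 19 it kept 2627 of 3220, 2732 of 3336 and 1659 of 3220 other cells. Of immune cells there it kept 803 of 899, 601 of 708 and 321 of 371. Other cells were thus lost more than immune cells, most so in line 15 and in line 19 at day 16. After thinning each cell to 1000 UMIs the means were 26.1% and 8.95%. Tumour size, dissociation and the live sort were not tested as sources of the share.

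The makeup of the immune cells also differed. A macrophage gate (at least 5 UMIs over 8 macrophage genes and under 2 UMIs over 6 T-cell genes) held 59.5%, 67.0% and 82.6% of immune cells in line 15 and 32.5%, 58.2% and 48.5% in line 19. The median depth of gated cells was 3995 UMIs in line 15 and 2704 in line 19. After thinning to 1000 UMIs the difference at day 10 turned to 11.9 percentage points higher in line 19, so its direction on that day depended on depth. A T-cell gate held 3.1%, 4.0% and 2.1% of immune cells in line 15 and 3.67%, 15.7% and 10.8% in line 19. In each of the 6 tumours the 8 T-cell markers had more UMIs in other cells than in immune cells. At day 10 they had 335 against 255 in line 15 and 1993 against 763 in line 19. The immune and T-cell shares thus leave out T-cell marker RNA that lies among the other cells. Cells with at least 5 UMIs of neutrophil genes were 2.74%, 2.33% and 1.11% against 0.334%, 0.424% and 0.27%. Cells in no gate were 33.1%, 24.3% and 12.6% of immune cells in line 15 and 60.6%, 20.8% and 38.3% in line 19, so that day 10 went the other way. For each of these 4 shares the exact permutation p was 0.25 or above.

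**Figure D4:**
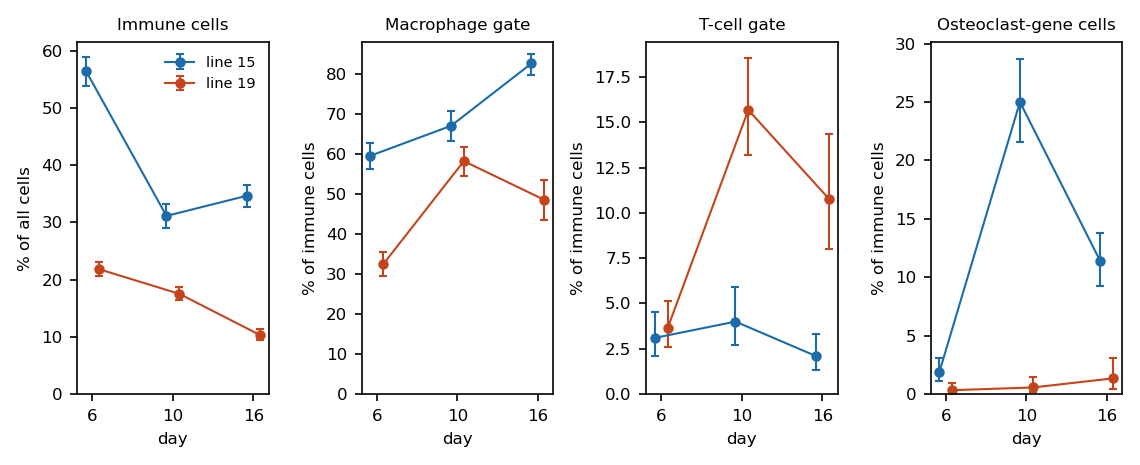
Share of immune cells among all cells, and of the macrophage gate, the T-cell gate and cells with osteoclast genes among immune cells, by day in the pooled library. Bars are 95% binomial intervals (Wilson, and exact for osteoclast genes), each point is 1 tumour, and lines join different tumours of the same line. Line 15 is above line 19 on each day in every panel except the T-cell gate, where it is below.

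In immune cells, 152 of 11451 genes were called (1.33%), 53 higher in line 19 (0.463%) and 99 lower (0.865%). Among genes with a mean logCPM of at least 4, the largest falls included genes of osteoclasts, the bone-resorbing relatives of macrophages. These calls rest on the pairing by day: with line alone as a term edgeR called 0 genes, with 1768 at an unadjusted p under 0.05. DESeq2 with the day term called 131 genes, 96 of them among the 152, and gave adjusted p = 0.144 for Mt3, 0.0534 for Slc9b2 and 0.0947 for Atp6v0d2. All 4 osteoclast markers were called lower, with a median log2 difference of -4.01 against 0.00 over all genes, and all 4 were tested. Like the other lists, this one was chosen with earlier results of these data known. Acp5, tartrate-resistant acid phosphatase, had 141, 1967 and 1153 CPM in line 15 at days 6, 10 and 16 and 16.4, 44.4 and 51.5 in line 19. Its log2 difference was -4.48 (SE 0.38, edgeR adjusted p = 0.0102). Ctsk, the collagen-degrading cathepsin of osteoclasts, had 42.8, 2029 and 1069 CPM in line 15 and 17.5, 31.1 and 65.0 in line 19. For Ctsk the day 6 tumour of line 15 lay within the range of line 19, and the adjusted p was 0.0463. The high values of line 15 were thus those of days 10 and 16.

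The other osteoclast genes had the same course over the days. Ocstamp, a protein of osteoclast fusion, had 12.6, 87.7 and 54.2 CPM in line 15 and 2.79, 3.396 and 6.77 in line 19. Atp6v0d2, a subunit of the proton pump, had 11.1, 208 and 106 against 5.01, 3.396 and 9.48. Mmp9, a gelatinase abundant in osteoclasts, had 23.1, 887 and 596 against 4.74, 23.5 and 34.5. Slc9b2, a sodium-hydrogen exchanger, and Mt3, a metallothionein, had log2 differences of -4.62 and -5.40, and both were at 3.29 CPM or less at day 6 in line 15. Without the day 10 pair the differences were smaller, at -3.81 for Mt3, -3.09 for Slc9b2, -3.86 for Acp5, -3.58 for Mmp9, -2.90 for Ctsk and -2.50 for Atp6v0d2. Without the day 6 pair they were larger, at -5.56 for Slc9b2, -5.04 for Ctsk and -4.85 for Atp6v0d2. Without the day 16 pair Ctsk (edgeR adjusted p = 0.176) and Atp6v0d2 (0.0843) were not called, nor was Ctsk with the stricter cell filter (0.0628). Tnfrsf11a, the RANK receptor through which osteoclasts form, was looked up after these values were seen. It had 26.6, 59.98 and 53.5 CPM in line 15 and 12.8, 20.1 and 11.5 in line 19 (log2 difference -1.56, edgeR adjusted p = 0.0227). Its ligand gene Tnfsf11 was not called in other cells, with 5.14 ± 4.59 and 3.13 ± 2.01 CPM in lines 15 and 19 (SD, n = 3; edgeR adjusted p = 0.504).

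The osteoclast transcripts sat in a minority of cells, by a limit set after seeing the data. Cells with at least 5 UMIs over Ctsk, Acp5, Ocstamp and Atp6v0d2 were 16 of 838 immune cells of line 15 at day 6 (1.91%), 150 of 600 at day 10 (25.0%) and 92 of 810 at day 16 (11.4%). In line 19 they were 3 of 899 (0.334%), 4 of 708 (0.565%) and 5 of 371 (1.35%). At days 10 and 16 of line 15 these cells held 98.8% and 96.5% of the immune cells' UMIs of the 4 genes. After thinning to 1000 UMIs the shares were 0.523%, 18.4% and 7.26% in line 15 and 0%, 0.295% and 0.608% in line 19. Among other cells, whose summed level serves as background, the share was 0.464% to 2.41% in line 15 and 0.217% to 0.48% in line 19 before thinning. After thinning it was 0% to 0.397% in line 15 and 0% in line 19. The immune cells of line 15 at days 10 and 16 were above the other cells of the same tumours. In line 19 at day 16 the 1.35% stood beside 0.217% of other cells. The single line 18 tumour of the library, at day 16, had 4.29%.

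The starts of 2 of these genes are shown because the genes fell together. Of 3 listed starts of Acp5, the one shown was picked because it alone holds a searched motif. Both windows are 200 bases before a RefSeq start on GRCm38.p6, and capitals mark CACATG, an E-box searched on both strands beside TGANTCA, the AP-1 motif. Neither window holds TGANTCA, and CACATG is in the Acp5 window alone. The windows of Slc9b2 and Mt3, which fell as well, were searched in the same way and hold neither motif.
Acp5, chr9:22130599-22130798, minus strand: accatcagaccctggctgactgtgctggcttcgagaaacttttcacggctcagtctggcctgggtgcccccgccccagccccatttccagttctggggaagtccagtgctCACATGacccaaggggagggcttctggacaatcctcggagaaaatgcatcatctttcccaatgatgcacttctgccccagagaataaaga
Ctsk, chr3:95499010-95499209, plus strand: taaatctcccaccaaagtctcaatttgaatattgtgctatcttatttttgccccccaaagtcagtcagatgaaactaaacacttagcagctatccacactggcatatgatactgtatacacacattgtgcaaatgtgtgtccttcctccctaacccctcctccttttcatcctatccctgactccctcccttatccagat
Of 32851 promoters of the same length, 9.76% hold CACATG and 5.48% hold TGANTCA. The motifs do not overlap each other.

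Of the marker lists of macrophages and lymphocytes, a few genes were called within the immune cells, where 0.865% of all tested genes were called lower and 0.463% higher. Of 9 macrophage markers Cd68 (log2 difference -1.63) and Csf1r (-0.98) were called lower, and all 9 were below 0. Cd68, a lysosomal protein, had 278, 619.9 and 767 CPM in line 15 and 142, 206 and 148 in line 19. S100a9, an alarmin of neutrophils, had 98.5, 58.1 and 27.8 against 3.34, 9.62 and 13.5 (log2 difference -2.92), and Ppbp, a chemokine of platelets, had -3.003. Of 13 lipid-associated macrophage genes Lpl (-1.77) and Fabp5 (-0.89) fell. These genes move with the shares of the macrophage gate and of neutrophil-gene cells given above, and that part was not tested.

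Ifng, the T-cell and NK-cell cytokine that activates macrophages, had the largest rise among genes with a mean logCPM of at least 4. It had 1.80, 1.90 and 0.695 CPM in line 15 and 153, 10.2 and 25.7 in line 19 (log2 difference 5.14, SE 0.52, edgeR adjusted p = 0.0156). The day 6 value rested on few cells, since 5 cells held 506 of the 550 Ifng UMIs of that tumour and 1 cell held 273. No other tumour was above 25.7 CPM, so the mean level that places Ifng in this ranking owes most to that tumour. Without the day 6 pair the log2 difference of Ifng was 3.70 (edgeR adjusted p = 0.041), and without the day 10 pair 6.04. Cells with an Ifng UMI were 3.56%, 3.81% and 4.58% of immune cells in line 19 and 0.239%, 1.17% and 0.247% in line 15, and after thinning to 1000 UMIs 1.95%, 2.21% and 2.43% against 0.131%, 0.35% and 0.127%. Cxcl9, an interferon-induced chemokine for T cells, had 230.1, 301 and 181 CPM in line 19 and 50.6, 50.2 and 104 in line 15 (log2 difference 1.86). Ccl5, a chemokine of T cells and NK cells, had 492, 301 and 408 against 202, 101 and 58.8 (1.85). In other cells Ccl5 went the opposite way, as given above. Slamf8, a myeloid surface receptor, had 47.9, 21.2 and 23.02 against 9.58, 6.24 and 9.96 (1.80). Without the day 6 pair Cxcl9 (edgeR adjusted p = 0.112) and Slamf8 (0.0641) were not called. Ccl5 was not called with a 10-fold hashtag ratio (adjusted p = 0.0591) or the stricter split of immune from other cells (adjusted p = 0.0531), and Slamf8 was not called after thinning (adjusted p = 0.0521).

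Ccr7 and Ccl22, both genes of mature dendritic cells, rose as well. Ccr7 had 259.9, 85.2 and 157 CPM in line 19 and 98.2, 23.6 and 21.8 in line 15 (log2 difference 1.98), so that the lines differed within each day although their ranges overlapped. With a 10-fold hashtag ratio the edgeR adjusted p of Ccr7 was 0.0553. Ccl22 had 54.0, 14.4 and 19.6 against 8.38, 4.07 and 11.8 (1.79, edgeR adjusted p = 0.0491). Its adjusted p was above the threshold under 8 alternatives, from 0.0506 to 0.182. Fscn1 (0.92), an actin-bundling protein of the same cells, was called higher, so that 2 of 4 tested dendritic cell markers (Ccr7 and Fscn1) were called, where 0.463% of all tested genes were called higher. In other cells the 6 markers of that list summed to 114 to 149 CPM in line 15 and 111 to 132 in line 19. In immune cells they summed to 75.4 to 202 CPM in line 15 and 194 to 488 in line 19. The list is thus not particular to immune cells here. Of 8 T-cell markers Cd3e (1.76) was called higher and all 8 were above 0. Xcl1 (1.57), Pdcd1 (1.64) and Cd69 (1.04), genes of activated lymphocytes, were called higher. These genes and the T-cell markers move with the share of the T-cell gate given above, and that part was not tested. Cd3e is itself one of the genes that define that gate. Gzmf (-4.34), a granzyme, was called lower, from 97, 46 and 27 UMIs in line 15 to 1, 5 and 1 in line 19 over all immune cells. Of 25 interferon response genes only Cxcl9 was called.

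**Figure D5:**
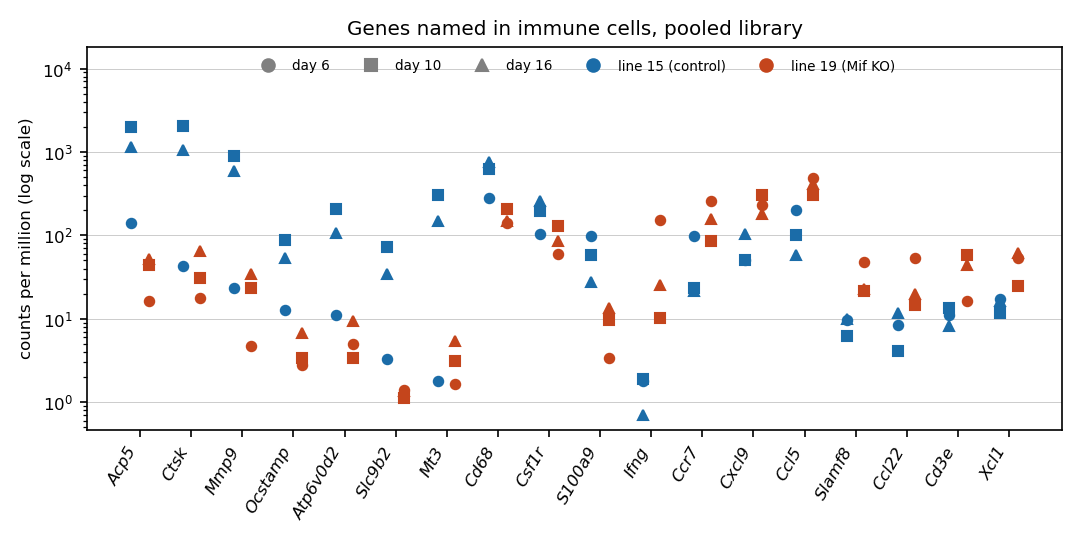
CPM (log axis) in immune cells of each tumour of the pooled library, with line 15 in blue, line 19 in orange and the day as the symbol. Osteoclast genes of line 15 are high at days 10 and 16, and Ifng of line 19 is highest at day 6.

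Within the macrophage gate, 86 of 10492 genes were called (0.82%), 13 higher in line 19 (0.124%) and 73 lower (0.696%). All 4 osteoclast markers were called lower. The gate holds most of the osteoclast-gene cells of line 15 described above, so this is not a separate measurement. They were 11 of 499, 124 of 402 and 82 of 669 gated cells in line 15 at days 6, 10 and 16 and 0 of 292, 1 of 412 and 4 of 180 in line 19. With line alone as a term edgeR called 0 genes in the gate, with 1436 at an unadjusted p under 0.05, and DESeq2 with the day term called 56, without Mt3 (adjusted p = 0.569), Dcstamp (0.489), Ctsk (0.231) and Mmp9 (0.058). Acp5 had 182, 2417 and 1288 CPM in line 15 and 26.4, 40.9 and 81.8 in line 19 (log2 difference -4.43, edgeR adjusted p = 0.00543). Mmp9 had 30.6, 1097 and 667 against 2.47, 1.80 and 58.5 (-5.38), Ctsk -4.89 and Mt3 -5.89. Dcstamp, a protein of osteoclast fusion, had 7.88, 75.1 and 53.4 against 0.825, 0 and 9.09 (-4.53). Without the day 10 pair the differences were -3.50 for Mmp9, -3.05 for Ctsk, -3.60 for Mt3 and -2.64 for Dcstamp. Without the day 16 pair they were -8.27 for Mmp9, -7.14 for Dcstamp and -6.43 for Ctsk, whose adjusted p was 0.0668. On the days then left, line 19 had at most 0.825 CPM of Dcstamp, so its value there rests on few counts. For Slc9b2 the gate held 385 UMIs in line 15 and 1 in line 19, a ratio of levels of 187 with an exact 95% counting interval from 33.4 to 7402. For Dcstamp it held 413 and 8 UMIs, a ratio of 25.1 with an interval from 12.6 to 58.5. Cd68 (-1.29), Mmp14 (-0.84), Lpl (-1.77) and Cd200 (-3.40) fell too.

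Slamf8 and Cxcl9 rose in the gate as they did over all immune cells. Slamf8 had 59.4, 27.8 and 22.1 CPM in line 19 and 9.73, 7.58 and 9.70 in line 15 (log2 difference 1.93). Cxcl9 had 191, 385 and 240.3 against 68.1, 62.6 and 111 (1.75), and Ccl24 (3.07), an eosinophil chemokine, rose beside them. Col12a1 (1.63), Col6a3 (1.23) and Rcn3 (1.46), genes of matrix-producing cells, made up the rest of the named rises. Over all days the gated cells of line 19 had 114% of the Col6a3 level of line 19 other cells, 149.7% of the Col12a1 level and 104.5% of the Rcn3 level. In line 15 the values were 30.2% for Col6a3, 16.04% for Col12a1 and 27.3% for Rcn3. The part of RNA from other cells in these 3 rises was not tested. With the top hashtag at least 10 times the second, the log2 difference of Col12a1 was 0.52 (edgeR adjusted p = 0.476) and Rcn3 was not called (adjusted p = 0.0754). Without the day 16 pair the edgeR adjusted p was 0.15 for Col12a1, 0.15 for Rcn3 and 0.0715 for Col6a3. The adjusted p of Rcn3 by DESeq2 was 0.0749, and that of Slamf8 by edgeR after thinning was 0.0806.

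The T-cell gate held 26, 24 and 17 cells in line 15 and 33, 111 and 40 in line 19. Since 1 tumour had under 20 cells, no test was made and the counts are given as they stand. Summed over the days, Ifng had 28.9 CPM in line 15 (95% Poisson interval 13.2 to 54.8) and 801 in line 19 (736 to 870.1). Of the 556 Ifng UMIs of line 19, 513 were from day 6. Ccl5, which was higher in line 19 over all immune cells, had 837 CPM (738 to 945) in line 15 and 713 (651 to 779) in line 19. By day it had 943, 905 and 421 CPM in line 15 and 996, 752 and 385 in line 19. Gzmb, a granzyme of cytotoxic cells, had 1090 (977 to 1212) against 265 (228 to 306), and Prf1, perforin, had 106 (72.8 to 149) against 20.2 (11.02 to 33.8). Prf1 had 27, 6 and 0 UMIs in line 15 at days 6, 10 and 16 and 6, 4 and 4 in line 19, so it was not lower in line 19 at day 16. The granzyme gene Gzmc did not have this pattern, with 442 (372 to 523) against 451 (402 to 503) CPM. Its UMIs were 138, 0 and 0 in line 15 over the days and 82, 26 and 205 in line 19. Tcf7, a transcription factor of naive and memory-like T cells, had 16.03 (5.21 to 37.4) against 60.5 (43.6 to 81.8). Cd8a had 144 (105 to 193) and 67.7 (49.7 to 90.0), and Cd4 had 25.7 (11.1 to 50.5) and 59.0 (42.4 to 80.1). Cd4 had 5, 0 and 3 UMIs in line 15 at days 6, 10 and 16 and 5, 24 and 12 in line 19, with 36.5 against 34.4 CPM at day 6. The Cd8a sum of line 15 came mostly from day 10, with 10, 30 and 5 UMIs over the days against 12, 24 and 11 in line 19, and at day 6 its level was lower in line 15 (73.1 against 82.5 CPM). In this gate all 77 Gzmf UMIs of line 15 were from day 6. The intervals cover counting error only, and T-cell marker RNA among the other cells is not in these counts.

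Most of the immune calls were also made in other tumours of lines 15 and 19, but that of Ifng was not. In the own libraries, 3847 of 11274 genes were called in immune cells (34.1%) and 2062 of 9871 in the macrophage gate (20.9%). Of the 152 genes, 134 were called there in the same direction and 0 in the opposite, which is 88.2% of the 152 and 3.48% of the 3847. Of the 86 genes of the gate, 71 were called in the same direction and 0 in the opposite, 82.6% of the 86 and 3.44% of the 2062. Acp5 had a log2 difference of -3.71 there, Ctsk -4.46, Ccr7 1.31 and Ccl5 1.55, while Ifng had 1.32 (SE 0.8, edgeR adjusted p = 0.224). Acp5 in immune cells of the own libraries had a lowest value of 19.6, a median of 1574 and a highest of 2555 CPM in line 15, and 10.1, 71.2 and 137 in line 19. The osteoclast-gene cells there were 0.264% to 0.366% of immune cells at day 6 and 11.6% to 25.0% at days 10 and 16 in line 15, and 0.186% to 3.7% over the days in line 19. The share of immune cells overlapped between the lines there at day 6. Line 15 had 547 immune beside 1186 other cells and 758 beside 888 in its tumours of that day, and line 19 had 1073 beside 1862 and 1232 beside 3078. At days 10 and 16 the share was lower in every line 19 tumour than in every line 15 tumour. Line 15 had 412 beside 696 and 370 beside 707 at day 10, and 1254 beside 1643 and 495 beside 1543 at day 16. Line 19 had 192 beside 2597 and 331 beside 1920, then 216 beside 1236 and 485 beside 2425.

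Line 24 against line 18, with no tumour shared, called 362 of 11156 genes in immune cells (3.24%) from 2 tumours per line. Of the 152 genes called for line 19, 85 were called there in the same direction (55.9% of the 152 and 23.5% of the 362) and 0 in the opposite. Acp5 (log2 difference -4.25), Ctsk (-6.08), Mmp9 (-5.61), Ocstamp (-2.47) and Atp6v0d2 (-5.69) were lower in line 24, and Ccr7 (1.80), Ccl5 (2.08) and Ifng (2.88) were higher. In other cells the same pair of lines had called 81 of the 973 genes in the same direction and 85 in the opposite one. The difference between immune cells and other cells in this respect was not tested.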

How the data were processed

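Live cells were hashed, sorted and captured with the 10x 5′ kit in 6 libraries, per the labels' protocols. The deposited files hold UMI counts of genes and hashtags, not normalized, from Cell Ranger 6.0.0 on mm10 per the submitters' processing notes. Of 32285 gene identifiers, 32235 were found in GENCODE M21 (GRCm38), used for positions. A deposited sheet gives each hashtag its line, day and letter. Doublets within a tumour were not removed.

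Counts were summed per tumour and cell class and tested with glmQLFTest of edgeR 4.0.16 after filterByExpr and TMM, with day as a block, Benjamini-Hochberg adjustment and a threshold of 0.05. Levels are TMM-scaled counts (CPM), except those of day 0, of line 18, of summed markers and of the T-cell gate, which are unscaled. SEs come from the fold change and F. The sheet does not say that tumours of a day share an animal, and p-values measure only the spread between these tumours. The fits were also run on simulated counts, drawn independently at the fitted dispersions. Those held no effect of day, no free RNA and no change in the mix of cells, so that run does not bear on these. The named genes are Mif, list members, and per comparison the 10, 6 or 5 largest called changes each way (other, immune, gate) whose mean logCPM reached 4, in 1 direction over the 3 days, leaving out predicted genes and receptor segments. Members and lists were chosen with earlier results of these data known. Alternatives were DESeq2 1.42.0, RLE, no filter, no block, a day left out, all tumours of the library, a 10-fold hashtag ratio, stricter cells (1000 UMIs, 10% mitochondrial), a stricter split, thinning, and no stromal cells. The fits of immune cells in other libraries and the per-cell counts of single genes were added after seeing the data.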

Additional observations from a re-analysis of the deposited data

Results flagged for a closer look

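In 9 of the 20 named genes of other cells, the difference of line 19 against line 15 itself differed from that of line 24 against line 18 (edgeR interaction, adjusted p under 0.05), where 8.87% of all tested genes did. The 20 genes were chosen for large differences of line 19, a choice that favours such calls. The interaction, on the log2 scale, was -4.6 for Ccl2, -2.58 for Tslrn1, -2.24 for Igfbp5 and -1.42 for Mif. It was 3.62 for Cldn9, 2.79 for Wfdc2, 2.38 for Prdx4, 1.1 for Ccdc88c and -0.809 for S100a16, which was higher in both KO lines. In the libraries of 1 line, 1 of 6 tumours stood apart in 2 groups. Ifng in immune cells of line 15 reached 114 CPM in 1 tumour, against a median of 3.30. Ctsk in immune cells of line 19 reached 107 in 1 tumour, against a median of 17.2. Chance marks about 1 in 20 such groups if their tumours are alike, and here each group spans days 6, 10 and 16.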

How the results depend on the processing

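Main counts of called genes were 973 (other cells), 152 (immune cells) and 86 (macrophage gate). Without the filter they were 1581, 679 and 549. Without replicate 6, 10 or 16 in turn, the range was 301 to 1147 for other cells, 45 to 379 for immune cells and 34 to 212 for the gate; the lowest values came without the day 6 pair in other cells and without the day 16 pair in the other 2. The fit with no replicate block gave 909 for other cells, 0 for immune cells and 0 for the gate, so the pairing by day decided the latter calls. In immune cells the 10-fold hashtag ratio gave 67 and the stricter split 66, and in the gate DESeq2 gave 56. Line 24 against line 18 called 1187 genes, 726 by DESeq2 and 406 without the filter. The difference between the pairs called 1211 genes and 341 to 1439 with a day left out. Own libraries called 6714 genes, and 5236 to 5796 with a day left out. Mif in other cells ranged from -2.41 to -2.17 and in immune cells from -0.25 to -0.13, with no change of call. The immune share difference ranged from -36.2 percentage points with the 10-fold hashtag ratio to -17.2 after thinning, and without 1 day from -29.5 to -19.0. The 10-fold ratio left out other cells more than immune cells. Of 19 other named genes in other cells, 13 kept their call in all 13 alternatives, and Mfap5 reversed to -0.0626 without stromal cells. Mfap5 is itself 1 of the markers by which those cells were left out. Of 12 named immune genes 0 kept their call in all 12 alternatives, since each lost it without the block, and in the gate Slc9b2 kept it in the 9 that gave it a value; none reversed. The T-cell gate had no test, because 1 tumour had 17 cells, and line 24 against line 18 with a day left out has no residual degrees of freedom, so neither was run. For the 3 sets the cause of these shifts was not tested. The depth per tumour, 783041 UMIs in the shallowest macrophage gate sum to 29508053 in other cells, limits low genes, and intervals cover counting error only.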
